A study of Mus musculus with 4 samples.

Results

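The 10 genes described here encode heat-shock chaperones, and they were followed in 4 single-cell RNA libraries from mouse bone marrow. They are Hspa1a, Hspa1b, Hsph1, Hspa8, Hsp90aa1, Hsp90ab1, Dnajb1, Dnaja1, Hspd1 and Hspe1, all 10 of which were found by symbol among the 31053 genes counted. They were chosen by symbol as a family and selected on a measured value, since Hspa1a, Hspa1b and Hsph1 had already been seen higher in STAT5 knockout (STAT5 KO) blood progenitors in these same libraries. The ratio of knockout to control in those progenitors is therefore given only as a description. The other comparisons, among stromal cells, between the sorts and between cells of different mice in 1 library, were not used in the choice of genes.

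Chaperones bind unfolded stretches of other proteins and help them fold, refold or move to degradation. Hspa1a and Hspa1b encode the stress-inducible form of the ATP-driven chaperone HSP70, and Hspa8 encodes the form present in unstressed cells. Heat, oxidants and other protein damage release heat shock factor 1, a transcription factor that binds repeated GAA blocks, the heat shock element, and drives Hspa1a and Hspa1b from low levels in unstressed cells. In blood stem cells, protein folding load and the heat shock response have been studied as part of how these cells keep a low rate of protein synthesis.

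Each library is 1 group, made with the 10x Chromium 3′ chemistry, version 3. The KLS libraries hold blood stem and progenitor cells of the bone marrow, sorted without lineage markers and with c-Kit and Sca-1, from 4 mice of 8 to 12 weeks (the protocol does not say whether 4 per genotype). The MSC libraries hold stromal cells from mice of 6 to 8 weeks, sorted for Sca-1 and CD140a and against CD45, CD71 and high Ter119, after a warm collagenase digestion that the KLS protocol does not have. Control mice have the genotype Vav1-Cre/+STAT5ab+/+ and STAT5 KO mice the genotype Vav1-Cre/+STAT5abfl/fl, so every mouse carries Vav1-Cre. That transgene is driven by a promoter active in blood cells, so the stromal cells of the knockout mice are not themselves its main target. The deposited labels give no identity of single mice, and no group has a second library.

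After filtering, 3085 control and 6726 STAT5 KO cells of the KLS sort were kept, with 51139373 and 76389354 unique molecular identifiers (UMIs, counted RNA molecules). The MSC libraries kept 577 and 374 cells with 1752793 and 1199251 UMIs, of which 393 and 235 cells were stromal. Median depth per cell was 15136 and 10085 UMIs in the KLS libraries and 2732 and 2496 in the MSC libraries. Between 200 and 393 barcodes of each library also occurred in another one, and those with more UMIs elsewhere were left out, after which no kept barcode was shared. Levels are counts per 1000000 UMIs (CPM) of the summed cells. Intervals are 95% and cover counting error only, not differences between mice or preparations. The targeted genes followed the labels in the KLS libraries, with Stat5a at 68.5 CPM (control) and 6.74 CPM (STAT5 KO) and Stat5b at 60.8 and 4.49 CPM. In the MSC libraries Stat5a was at 39.9 CPM (control) and 55.0 CPM (STAT5 KO) and Stat5b at 50.2 and 46.7 CPM. For stromal cells STAT5 KO therefore names the genotype of the mice, not a loss of these transcripts. Pdgfra, which encodes the CD140a of the stromal sort, had no UMI in kept KLS cells and 287 and 236 CPM in the MSC libraries.

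Hspa1a and Hspa1b are a tandem pair of single-exon genes on the minus strand of chromosome 17. In GRCm38, GENCODE M21 places Hspa1a at chr17:34969190-34972156 and Hspa1b at chr17:34956436-34959238, 9951 bases apart. The 250 bases before the start of each gene (RefSeq, GRCm38.p6) are shown because the 2 genes had near-equal ratios in the KLS cells and these windows differ at 3 of 250 bases. The windows are chr17:34972157-34972406 for Hspa1a and chr17:34959239-34959488 for Hspa1b, both minus strand, written 5′ to 3′. Capitals mark the heat shock element form GAANNTTC.
Hspa1a: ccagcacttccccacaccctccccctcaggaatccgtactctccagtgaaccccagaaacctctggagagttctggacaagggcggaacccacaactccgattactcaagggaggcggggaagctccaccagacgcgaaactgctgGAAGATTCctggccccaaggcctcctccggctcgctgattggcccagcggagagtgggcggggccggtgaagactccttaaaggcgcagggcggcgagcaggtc
Hspa1b: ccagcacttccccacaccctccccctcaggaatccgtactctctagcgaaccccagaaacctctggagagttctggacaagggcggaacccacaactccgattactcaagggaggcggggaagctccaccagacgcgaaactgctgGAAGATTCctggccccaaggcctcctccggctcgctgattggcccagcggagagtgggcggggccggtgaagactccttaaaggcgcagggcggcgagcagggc

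Both windows hold that element once, beginning 104 bases before the start. The 8-base forms GAANNTTC and TTCNNGAA were searched, each of which reads the same on both strands, together with the 13-base forms made by joining one to the other with a shared block of 3 bases. Of 32851 windows of 250 bases before the starts of 27025 genes, 12.8% held an 8-base form and 0.466% a 13-base form. Windows were found for 7 of the 10 chaperones, and 6 of these held an 8-base form in at least 1 window, beside 14.5% of the 27025 genes. The elements outside the tandem pair are shown as 30-base stretches, since they differ from it in form, number and distance.
Hsph1, chr5:149636351-149636380, minus strand: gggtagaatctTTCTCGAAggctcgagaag
Dnaja1, chr4:40722333-40722362, plus strand: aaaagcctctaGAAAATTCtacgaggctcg
Hspe1, chr1:55088053-55088082, plus strand: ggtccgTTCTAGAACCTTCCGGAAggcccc

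Hsph1 held 1 TTCNNGAA, in both of its windows, and Dnaja1 held 1 GAANNTTC in 1 of its 3 windows. Hspe1 and Hspd1, which lie head to head on chromosome 1, share the same 18 bases, read on opposite strands and found in 1 of the 2 windows of Hspd1. This stretch holds 3 overlapping 8-base forms and both 13-base forms. The windows of Dnajb1 held neither form. These matches are letters in a window and do not show binding.

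The 3′ ends that these libraries count tell the tandem genes apart. None of 451 stretches of 50 bases in the last 500 bases of the Hspa1a transcript occurred in the Hspa1b transcript, and none the other way. In the rest of the transcripts 71.0% of the Hspa1a stretches occurred in Hspa1b and 76.1% the other way. Reads from inside the coding part could therefore not be assigned to 1 gene, and the sum of both is used as the main measure. Hspa1a also overlaps Gm20481, annotated on the other strand. Hspd1 overlaps Hspe1 head to head, away from the counted ends, and Dnaja1 overlaps 3 annotated genes.

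In KLS cells the stress-inducible pair was low in the control library and higher in the STAT5 KO library. Hspa1a was at 6.36 CPM among control and 21.7 CPM among STAT5 KO cells, and Hspa1b at 6.88 and 25.9 CPM. Together they had 677 UMIs in control, or 13.2 CPM (12.3 to 14.3), and 3636 in STAT5 KO, or 47.6 CPM (46.1 to 49.2), a log2 ratio of 1.85 (1.73 to 1.97). Hsph1, which encodes HSP110, the exchange factor that reloads HSP70 with ATP, stood at 43.7 and 92.1 CPM, a log2 ratio of 1.07 (1.01 to 1.14). These are the 3 genes whose higher level had led to the choice.

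The remaining 7 chaperones differed far less between the genotypes than these 3, which had been chosen for their higher level. Hsp90aa1, the inducible cytosolic HSP90, stood at 1102 and 1631 CPM, a log2 ratio of 0.57, just under 1.5-fold. Scaled with TMM or median of ratios its log2 ratio was 0.59 by either, past 1.5-fold, which makes 4 chaperones past it instead of 3. Its constitutive partner Hsp90ab1 stood at 2800 and 3174 CPM (0.18) and Hspa8 at 2157 and 2634 CPM (0.29). The mitochondrial chaperonin Hspd1 and its lid Hspe1 stood at 358 and 477 CPM and at 430 and 570 CPM in control and STAT5 KO (log2 ratios 0.41 and 0.41). Of the HSP40 proteins, which hand clients to HSP70, Dnaja1 stood at 382 and 485 CPM (0.35) and Dnajb1, otherwise a strongly heat-inducible one, at 92.6 and 101.6 CPM (0.13). Summed, these 7 genes were at 7322 and 9075 CPM, a log2 ratio of 0.31 (0.30 to 0.32).

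In all, 3 of 10 chaperones were at least 1.5-fold higher in STAT5 KO KLS cells and none at least 1.5-fold lower, where 1.09% of 12074 genes were higher and 2.55% lower by that measure. All 10 had a log2 ratio above 0, against 48.5% of all genes, and their median was 0.41 against -0.01. For these counts 1 CPM was added to each level, and only genes with 100 or more UMIs in the compared libraries together were used, a minimum that all 10 chaperones passed. Since these ratios chose the genes, nothing is read from the counts.

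**Figure D1:**
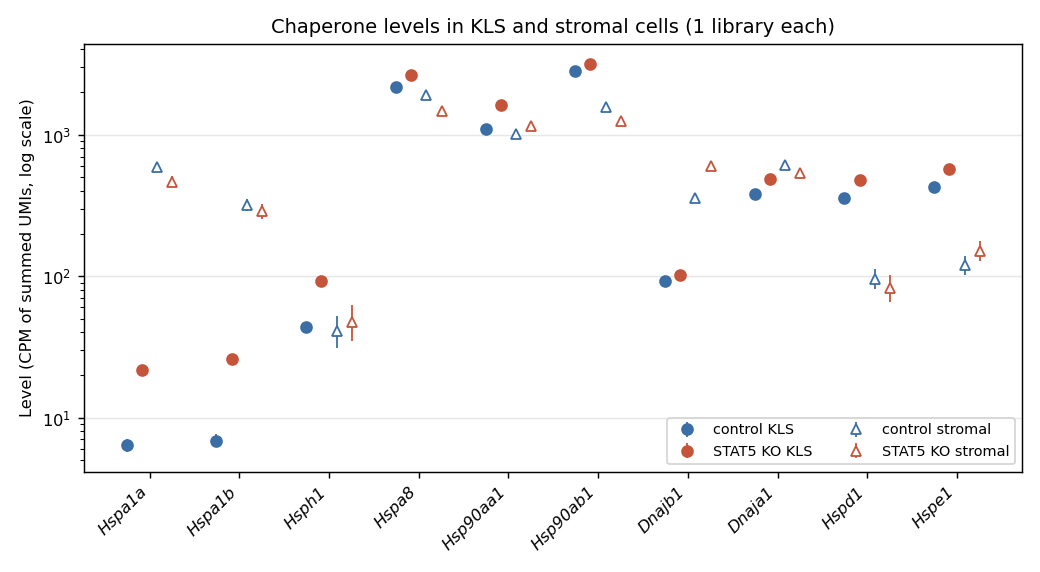
Level of each chaperone on a log scale (CPM of summed UMIs) in KLS cells (filled circles) and stromal cells (open triangles) of control (blue) and STAT5 KO (red) libraries, with 95% Poisson intervals, 1 library each. Hspa1a was at 6.36 and 21.7 CPM in the KLS libraries and at 591 and 464 CPM in the stromal ones.

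The pair's UMIs were spread unevenly over single cells. With every cell of the KLS sort thinned to 4000 UMIs, which left out 24 control and 289 STAT5 KO cells, 3.36% (2.75 to 4.07) of 3061 control cells and 9.71% (8.997 to 10.46) of 6437 STAT5 KO cells had at least 1 UMI of the pair. Without thinning the shares were 8.65% and 16.9%. Cells with 2 or more thinned UMIs made up 0.719% of control and 3.59% of STAT5 KO cells, where a Poisson spread of the same mean gives 0.103% and 1.21%. The 1% of cells with the most UMIs of the pair held 48.9% of them in control and 26.5% in STAT5 KO. The corresponding values for Dnajb1 were 7.37% and 8.10%, so that gene was less concentrated in few cells, at a higher mean.

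Hspa1a and Hspa1b were found in the same cells more often than independence gives, though most cells with Hspa1a showed no Hspa1b. Thinned to 4000 UMIs, 19.2% of control and 39.0% of STAT5 KO cells with Hspa1a also had Hspa1b. At 4000 UMIs, 10 control cells held both where 1.04 would if the 2 were independent, and 130 STAT5 KO cells held both where 21.8 would. Within clusters of like cells the ratios of seen to independent counts were 6.64 and 4.48. Hsph1 was detected in 31.1% (22.3 to 40.9) of control cells with a UMI of the pair and 14.03% (12.8 to 15.3) of those without. In STAT5 KO these shares were 50.6% (46.6 to 54.5) and 23.1% (22.1 to 24.2). Dnajb1 was detected in 44.7% (34.9 to 54.8) of control cells with a UMI of the pair and 30.4% (28.7 to 32.1) of those without. In STAT5 KO the shares for Dnajb1 were 42.7% (38.8 to 46.7) and 30.7% (29.5 to 31.9). Hsph1 and Dnajb1 were found together 1.08 (control) and 1.103 (STAT5 KO) times as often as independence gives. These shares describe cells of 1 library each, and cells of 1 mouse are not independent.

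Among 7868 genes with at least 0.05 thinned UMIs per cell, those whose log counts followed the pair most closely across cells were mostly chaperones. The mean Pearson correlation over the 2 KLS libraries was 0.18 for Hsp90aa1, 0.16 for Hsph1 and 0.15 for Hspa8, which held the first 3 ranks. Among genes outside the 10, the highest were Cacybp (0.13), which the heat shock factor 1 list also holds, Hspa5 (0.10), the HSP70 of the endoplasmic reticulum, and Ncl (0.10), the nucleolar protein nucleolin. They were followed by Ptma, Ran, Ppia, Mif, Ranbp1, Ybx1 and Nolc1, from 0.10 to 0.09. These weak correlations come from sparse counts of cells that share a library, and each was larger in STAT5 KO than in control. Hspa1a with Hspa1b reached 0.20 in control and 0.35 in STAT5 KO.

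The KLS cells were split into 18 clusters made without the chaperones, and 15 of these held at least 20 cells of both genotypes. The pair was higher in STAT5 KO in 14 of the 15, with an interval above 0 in 10. The widest gap was in the myeloid progenitor-like cluster 13 (Elane, Mpo, Prtn3), with 14.02 CPM from 38 control cells and 180.6 CPM from 123 STAT5 KO cells. It was also wide in cluster 1, led by mitotic genes with Ctsg and Mpo (6.67 and 51.8 CPM), and in cluster 9, led by genes of DNA replication such as Mcm2 and Mcm4 (10.9 and 75.1 CPM).

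In cluster 2, led by Pdzk1ip1, Mycn and Procr, the pair stood at 5.35 CPM in 561 control cells and 7.54 CPM in 286 STAT5 KO cells, a log2 ratio of 0.49 (-0.50 to 1.43). Cluster 7, led by Wfdc17, Ccr9 and Ccl3, had 7.20 and 5.37 CPM, and the erythroid-like cluster 14 (Klf1, Car1, Aqp1) had 26.8 and 32.9 CPM. All 3 intervals include 0. Hsph1 was higher in STAT5 KO in 15 of 15 clusters, with an interval above 0 in 13, from a log2 ratio of 0.14 in the erythroid-like cluster to 2.23 in the myeloid progenitor-like one.

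Cluster 17 stands apart, with 4 control and 699 STAT5 KO cells and a median of 4785 UMIs. Its STAT5 KO cells had 61.5 CPM of the pair and 88.9 CPM of Hsph1, and without it the log2 ratios over all KLS cells were 1.83 for the pair and 1.09 for Hsph1.

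**Figure D2:**
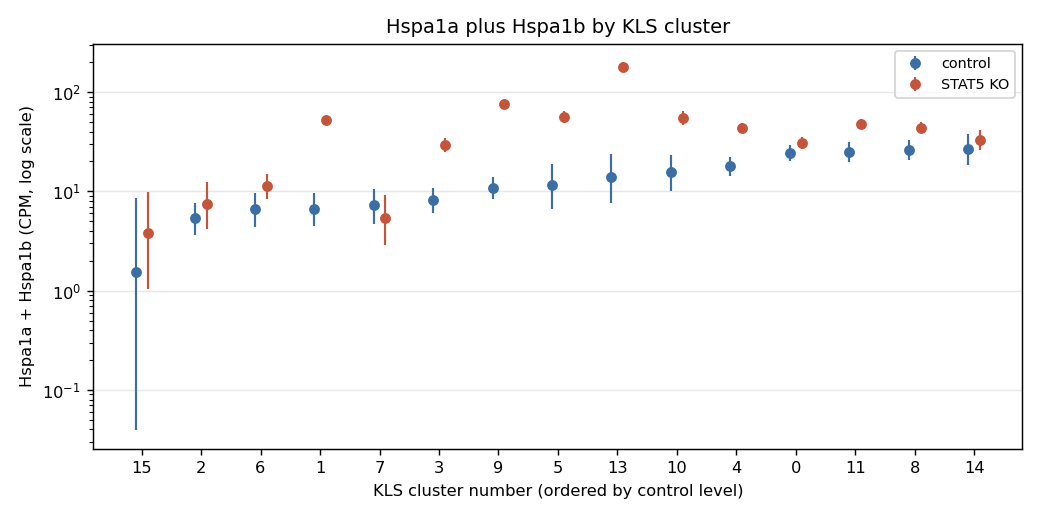
Hspa1a plus Hspa1b (CPM, log scale, 95% Poisson intervals) in the 15 KLS clusters with at least 20 cells of both genotypes, ordered by the control level. STAT5 KO (red) lies above control (blue) in 14 clusters, with 180.6 against 14.02 CPM in cluster 13, and below it in cluster 7, with 5.37 against 7.20 CPM.

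The level of the pair also differed between mice of 1 library. The KLS libraries hold cells of both sexes, so that cells with an Xist UMI and no UMI of the Y-linked genes Ddx3y, Eif2s3y, Kdm5d and Uty (here Xist cells) came from other mice than cells with a Y-linked UMI and no Xist UMI (Y cells). The control library held 1091 Xist cells and 1497 Y cells, and the STAT5 KO library 2367 and 2964. A further 320 and 554 cells held both kinds of transcript, and 177 and 841 held neither, with 10.8 and 40.4 CPM of the pair in the former and 20.0 and 62.4 CPM in the latter. This split was made after the data had been seen, and it does not use the chaperones.

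In control KLS cells the pair was nearly absent from Xist cells. They held 15 UMIs of it, 0.775 CPM (0.433 to 1.28), while Y cells of the same library held 535, or 24.8 CPM (22.8 to 27.0). The Y cells were thus 32.1-fold higher (19.3 to 57.7). Hspa1a stood at 0.516 and 11.7 CPM and Hspa1b at 0.258 and 13.2 CPM, so both genes showed it. At 4000 UMIs, 0.370% (0.101 to 0.945) of Xist cells and 5.43% (4.34 to 6.71) of Y cells had a UMI of the pair.

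In STAT5 KO KLS cells the pair was again lower in Xist cells, at 14.5 CPM (13.1 to 16.1) against 72.7 CPM (69.8 to 75.6) in Y cells, a log2 ratio of 2.32 (2.17 to 2.48). The shares with a UMI at 4000 UMIs were 4.73% and 13.0%.

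In both KLS libraries 3 of 10 chaperones, the pair and Hsph1, were at least 1.5-fold higher in Y cells, where 2.37% of genes in control and 0.834% in STAT5 KO were. None was 1.5-fold lower, beside 0.62% and 0.547% of genes. In control the pair passed the minimum of 100 UMIs only through its Y cells, with 10 UMIs of Hspa1a and 5 of Hspa1b in Xist cells against 251 and 284 in Y cells, so that count is no support. Hsph1 was at 34.0 and 53.4 CPM in Xist and Y cells of the control library and at 70.6 and 108.4 CPM in those of the STAT5 KO library. Dnajb1 (75.1 and 109.6 CPM) and Dnaja1 (315.7 and 445.3 CPM) were also higher in control Y cells, by log2 ratios of 0.54 (0.45 to 0.64) and 0.50 (0.45 to 0.54). Hspd1 and Hspe1 went the other way in control, at 398.8 against 333.3 CPM and 472.1 against 401.8 CPM, and had small ratios above 0 in STAT5 KO (0.16 and 0.09). The other 7 chaperones together were level between Xist and Y cells in control, at 7376 and 7417 CPM. In STAT5 KO their sum was at 8732 and 9372 CPM, a log2 ratio of 0.10 (0.09 to 0.11). Of these, Hsp90aa1 had log2 ratios of -0.08 in control and 0.18 in STAT5 KO, and Hsp90ab1 of -0.09 and 0.07.

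The difference between Xist and Y cells was seen in nearly every kind of KLS cell. The pair was higher in Y cells in 15 of 15 control clusters and 16 of 16 STAT5 KO clusters with at least 10 cells of each kind, with an interval above 0 in 13 of each. No control cluster had more than 1.498 CPM in its Xist cells, and 6 had no UMI there. Hsph1 was higher in Y cells in 13 of 15 control clusters and 14 of 16 STAT5 KO clusters. The mix of Xist and Y cells differed between the genotypes within clusters, so levels over a whole cluster hold that difference too. Cluster 13 held 25 Xist and 12 Y cells in control, and 35 and 64 in STAT5 KO. Its level of the pair was 1.45 (control) and 28.1 CPM (STAT5 KO) among Xist cells, and 39.7 and 222.1 CPM among Y cells. Median depth was 17127 UMIs in Xist and 13137 in Y cells of the control library and 10125 and 10592 in STAT5 KO, and median mitochondrial shares were 4.33% and 4.53%, and 2.90% and 2.91%. The 0.775 CPM of control Xist cells also bounds what free RNA in the droplets of that library added to them. Whether the difference follows sex or single mice cannot be told apart, since the mice of each sex are not identified.

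The genotypes were also set side by side within the Xist cells and within the Y cells, as a description, since this contrast chose the genes. Among Xist cells the pair was at 0.775 CPM (control) and 14.5 CPM (STAT5 KO), a log2 ratio of 4.23 (3.49 to 5.08), and among Y cells at 24.8 and 72.7 CPM, a log2 ratio of 1.55 (1.41 to 1.69). Hsph1 was 2.08-fold higher in STAT5 KO among Xist cells and 2.03-fold higher among Y cells. The control Y cells had more of the pair than the STAT5 KO Xist cells, so the order of the groups was control Xist, STAT5 KO Xist, control Y and STAT5 KO Y. Counted by the 1.5-fold rule, 3 of 10 chaperones were higher in STAT5 KO among Xist cells and 4 among Y cells, which add Hsp90aa1, against 1.4% and 1.5% of all genes. Nothing is read from these counts, and among Xist cells the pair passed the minimum of UMIs only through STAT5 KO.

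**Figure D3:**
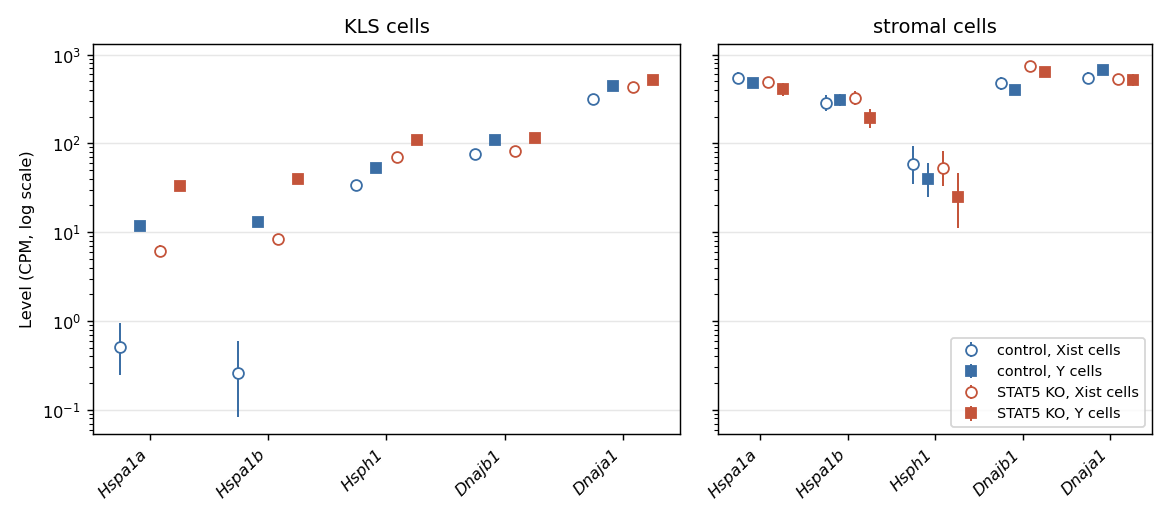
Levels (CPM, log scale, 95% Poisson intervals) of 5 chaperones in cells with Xist UMIs (open circles) or Y-linked UMIs (squares) of control (blue) and STAT5 KO (red) libraries, KLS cells on the left and stromal cells on the right. In KLS cells Hspa1a and Hspa1b are lowest in control Xist cells (0.516 and 0.258 CPM), whereas in stromal cells all 4 groups lie between 191.4 and 547.6 CPM for these genes.

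The level of the pair also differed between bands of mitochondrial share, without a steady course in STAT5 KO. The median share was 4.44% in control and 2.91% in STAT5 KO KLS cells, so that 8 control but 3655 STAT5 KO cells lay between 2% and 3%. In the band of 3% to 4%, with 617 control and 2346 STAT5 KO cells, the pair stood at 24.8 and 27.3 CPM, a log2 ratio of 0.14 (-0.06 to 0.33). In the band of 4% to 5% it stood at 9.96 and 25.3 CPM, and at 5% or more at 5.17 and 50.7 CPM. Hsph1 was higher in STAT5 KO in each of these 3 bands, with a log2 ratio of 0.46 (0.33 to 0.58) at 3% to 4%. In that band none of the 10 chaperones was 1.5-fold higher in STAT5 KO, beside 1.65% of genes.

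Xist and Y cells were then compared within these bands. Xist cells of 3% to 4% had 0.847 CPM of the pair in 271 control cells and 11.1 CPM in 780 STAT5 KO cells, a log2 ratio of 3.71 (2.44 to 5.37). Y cells of that band had 53.4 CPM in 257 control cells and 43.1 CPM in 1080 STAT5 KO cells, a log2 ratio of -0.31 (-0.53 to -0.08). At 4% to 5%, Y cells had 19.6 and 20.3 CPM (log2 0.05, -0.78 to 0.78), and at 5% or more 4.60 and 98.1 CPM, the latter from 22 UMIs in 47 cells. Xist cells had 0.604 (control) and 24.7 CPM (STAT5 KO) at 4% to 5% (log2 5.35, 3.99 to 6.88). At 5% or more they had 1.68 and 36.6 CPM (log2 4.45, 2.67 to 6.85). Their control levels in these 2 bands rest on 7 and 3 UMIs. Among control Y cells the pair was thus lower in each band of higher mitochondrial share, while control Xist cells had at most 1.68 CPM in any of the 3 bands. STAT5 KO Y cells of 2% to 3%, which have 3 control counterparts, had 88.3 CPM in 1674 cells. The part of the mitochondrial share in the differences was not tested.

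**Figure D4:**
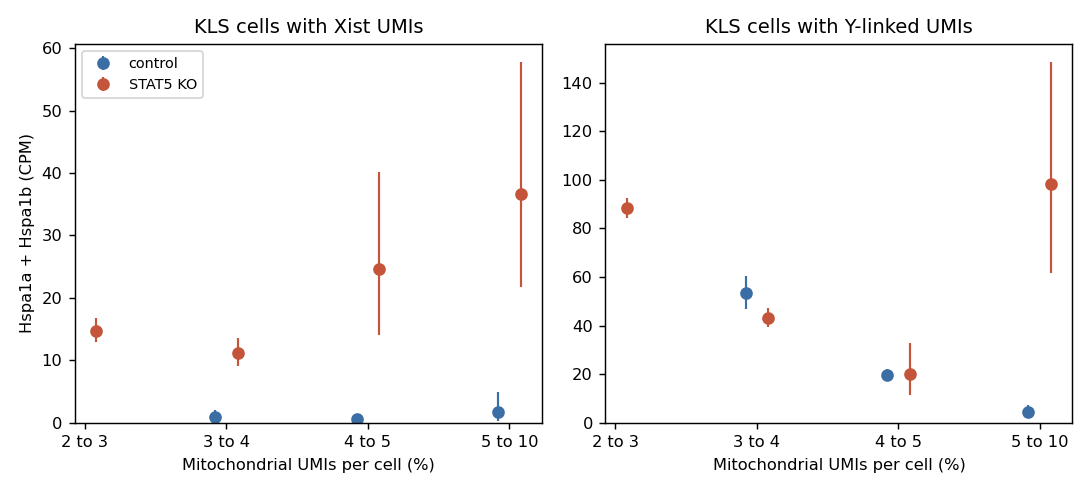
Hspa1a plus Hspa1b (CPM, 95% Poisson intervals, axes starting at 0 with different ranges) by mitochondrial share in KLS cells with Xist UMIs (left) and with Y-linked UMIs (right), for bands from 2% up and groups of at least 20 cells. At 3 to 4% the Y cells had 53.4 CPM (control) and 43.1 CPM (STAT5 KO), and the Xist cells 0.847 and 11.1 CPM.

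Depth, like the mitochondrial share, was lower in the STAT5 KO library. For the pair the log2 ratio was 2.61 (1.85 to 3.50) in cells under 8000 UMIs, 1.60 (1.37 to 1.83) from 8000 to 16000 and 2.28 (2.13 to 2.42) above. Gm42418 and AY036118, which carry ribosomal RNA reads, were at 491.4 and 1044 CPM and at 13.5 and 35.4 CPM in control and STAT5 KO. The part of these in the result was not tested.

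Most other stress genes differed less between the KLS libraries than the pair did, but the pair was chosen for its difference there. Nothing is therefore read from that comparison. Of 21 other genes that heat shock factor 1 induces, such as Bag3, Hspb1 and Stip1, 19 had enough UMIs, and none was 1.5-fold higher or lower in STAT5 KO KLS cells. Their median log2 ratio was 0.19. Of 8 heat shock factors and regulators tested none passed 1.5-fold, with a median of 0.05. Among 32 other cytosolic HSP70, HSP40 and co-chaperone genes only Ptges3, the HSP90 co-chaperone p23, did, at 265 and 418 CPM. No subunit of the chaperonin TRiC or prefoldin (13 tested), no mitochondrial chaperone or protease (15) and no proteasome subunit (31) passed, with medians of 0.10, 0.15 and 0.15. Of all genes only 1.09% were 1.5-fold higher and 2.55% lower, so these low counts show little. At any size of change, 14 of the 19, 7 of the 8 and 22 of the 32 were above 0, beside 48.5% of all genes. So were 10 of the 13 TRiC or prefoldin, 12 of the 15 mitochondrial and 28 of the 31 proteasome genes.

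Higher and lower in the next KLS lists mean by at least 1.5-fold, as 1.09% and 2.55% of all genes were. Of 24 genes of the endoplasmic reticulum stress response, 2 were higher, with a median of 0.21 over the list. They were Hyou1, which encodes the HSP110 of that compartment (22.8 and 37.1 CPM), and Sdf2l1 (58.5 and 88.4 CPM). The metallothioneins Mt1 (20.2 and 60.9 CPM) and Mt2 (6.18 and 20.1 CPM), which bind metals, were the 2 higher of 15 genes of the oxidative and metal response, whose median was 0.04. Of 32 immediate early genes, which mark acute handling and signalling alike, Socs3 was higher (9.07 and 14.2 CPM) and Rhob lower (82.9 and 51.9 CPM), with a median of -0.12. Of 13 p53 targets Pmaip1 was higher, at 0.782 and 2.36 CPM. At any size of change, 21 of the 24 endoplasmic reticulum genes and 8 of the 15 oxidative and metal genes were above 0. So were 11 of the 32 immediate early genes and 8 of the 13 p53 targets, beside 48.5% of all genes. These lists were written with earlier results of these data known and are described beside a median of -0.01 over all genes.

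Stromal cells held far more of the inducible pair than KLS cells. In control, Hspa1a stood at 591 CPM in stromal cells and 6.36 CPM in KLS cells, 92.9-fold higher (81.7 to 105.9), and Hspa1b at 318 and 6.88 CPM, 46.3-fold higher (40.2 to 53.3). Dnajb1 was 3.85-fold higher (356 against 92.6 CPM) and Dnaja1 1.60-fold, so that 4 of 10 chaperones were at least 1.5-fold higher in stromal cells, beside 24.8% of all genes. The mitochondrial Hspd1 and Hspe1 were 3.75-fold and 3.61-fold lower and Hsp90ab1 1.79-fold lower, 3 of 10 beside 43.8% of genes. Hsph1, Hspa8 and Hsp90aa1 lay within 1.14-fold. In STAT5 KO the pair was 15.8-fold higher in stromal than in KLS cells, 3 of 10 chaperones were at least 1.5-fold higher beside 24.2% of genes, and 5 lower beside 46.8%. The 35 immediate early genes, which respond within minutes to handling and signals, summed to 2943 CPM in control KLS cells and 34757 CPM in control stromal cells, and the 21 other genes induced by heat shock factor 1 to 4324 and 8449 CPM. The sorts differ in cell type, mouse age, digestion and depth, and these cannot be told apart.

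The MSC libraries also held blood cells. Their myeloid progenitor-like cluster held 58 control and 43 STAT5 KO cells. Its leading genes were S100a8, S100a9, Jchain, Elane, Mpo, Prtn3, Ngp, Ctsg, Camp and Cd74. It had 7590 and 4136 CPM of the pair, the highest level of any cluster in either sort. The cluster of that name in the KLS libraries, which shares only Elane, Mpo, Prtn3 and Ctsg among its leading genes, had 14.02 and 180.6 CPM. These clusters need not hold the same kind of cell, and the cause of the difference was not tested. The erythroid-like cells of the MSC libraries, at a median of 639.5 UMIs, had 1 UMI of the pair in each library (7.83 and 13.3 CPM). What free RNA added to the other clusters was not tested. Among stromal clusters the pair reached 1359 and 1343 CPM in the CXCL12-abundant stromal-like cluster (Cxcl12, Kitl, Adipoq), and the lowest control level was 59.6 CPM from 4 UMIs in the 6 control cells of the chondrocyte-like cluster (Col2a1, Col9a1), with 357 CPM in its 25 STAT5 KO cells.

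Between the genotypes of the stromal cells the pair was lower in STAT5 KO by a small margin. Control cells had 909 CPM (861 to 959) and STAT5 KO cells 751 CPM (698 to 806), a log2 ratio of -0.28 (-0.41 to -0.15). Hspa1a was at 591 and 464 CPM and Hspa1b at 318 and 287 CPM, and Hsph1 at 40.6 and 47.4 CPM from 60 and 48 UMIs, with an interval that includes 0. With the clusters given the weights they have in the control, the log2 ratio of the pair was 0.0059. It was -0.084 with each cell thinned to 1000 UMIs, and as a mean of single-cell CPM it was -0.059. The cause of these changes was not tested. The share of cells with a UMI of the pair, thinned to 1000 UMIs, was 41.8% (36.7 to 47.0) in control and 36.7% (30.4 to 43.3) in STAT5 KO.

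Dnajb1 was the 1 of 10 chaperones at least 1.5-fold higher in STAT5 KO stromal cells, beside 5.42% of 3986 genes, and none was 1.5-fold lower, beside 8.93%. Log2 ratios were above 0 for 4 of 10, beside 37.4% of genes. Dnajb1 stood at 356 and 600 CPM, a log2 ratio of 0.75 (0.58 to 0.92). In the chondrocyte-like cluster, with 6 control and 25 STAT5 KO cells, Dnajb1 was at 745 and 1258 CPM. In each of the 4 stromal clusters with at least 20 cells of both genotypes its interval included 0. With control weights for the clusters, no chaperone passed 1.5-fold. Hspa8 (1898 and 1461 CPM) and Hsp90ab1 (1566 and 1244 CPM) were lower in STAT5 KO, and Hsp90aa1 (1012 and 1144 CPM) and Hspe1 (119 and 151 CPM) higher. The other 8 chaperones summed to 5696 and 5263 CPM, a log2 ratio of -0.11, close to the median of -0.10 over all genes.

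The stromal clusters pointed different ways for the pair. Cluster 1, led by the tendon genes Tnmd, Scx and Fmod, had 490.2 CPM in 89 control cells and 1005 CPM in 51 STAT5 KO cells, a log2 ratio of 1.04 (0.69 to 1.38). Cluster 4, led by Ccl11, Gpc3 and Smoc2, had 1155 and 861.8 CPM (-0.42, -0.80 to -0.06). The CXCL12-abundant stromal-like cluster was level. In control stromal cells the pair was at 834.6 CPM in 73 Xist cells and 786.4 CPM in 130 Y cells, a log2 ratio of -0.09 (-0.31 to 0.14). In STAT5 KO the Y cells were lower, at 599.0 CPM in 67 cells against 819.4 CPM in 89 Xist cells (-0.45, -0.71 to -0.20). Of the 8 chaperones with enough UMIs, none was 1.5-fold higher in Y cells of either stromal library, beside 8.91% and 8.42% of genes. Hspa1b was the 1 of 8 at least 1.5-fold lower in STAT5 KO Y cells, beside 6.99% of genes, and none was in control, beside 5.52%.

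Over all kept MSC cells, blood cells included, the pair stood at 1411 and 1020 CPM, with 1 of 10 chaperones 1.5-fold higher beside 5.04% of genes, none lower beside 6.58% and 3 above 0 beside 42.6%. For the other lists in stromal cells, here and below, higher and lower mean by at least 1.5-fold. Of all genes in stromal cells, 5.42% were higher and 8.93% lower by that measure. Of 34 immediate early genes 3 were higher, Fosb (2212 and 3755 CPM), Btg2 (763 and 1185 CPM) and Nr4a2 (173 and 346 CPM). Egr3 was lower (115 and 67.2 CPM). The median log2 ratio of this list was 0.22. Of 16 genes induced by heat shock factor 1, none was higher and 2 were lower, Fkbp4 and Hspb8, with a median of -0.01. The endoplasmic reticulum list had 2 of 21 lower, Hyou1 and Dnajb11, and a median of -0.26. The proteasome list had 2 of 30 lower, Psmc3 and Psmb5, and a median of -0.27. At any size of change, 19 of the former were below 0 and 2 above, and 23 of the latter below and 7 above. Of all genes in stromal cells, 37.4% were above 0.

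Of 13 genes of the oxidative and metal response in stromal cells, Srxn1 (51.5 and 195.6 CPM) and Txnrd1 (76.5 and 121.5 CPM), both of the thiol redox system, were higher, and Gclm, Hmox1 and Gsr were lower, with a median of -0.31. Of 6 p53 targets Ei24 and Phlda3 were lower, with a median of -0.36. Of 11 subunits of TRiC and prefoldin Pfdn6 was lower, with a median of -0.06. None of 3 heat shock factors and regulators and none of 3 mitochondrial chaperones and proteases passed 1.5-fold, with medians of -0.18 and 0.05.

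**Figure D5:**
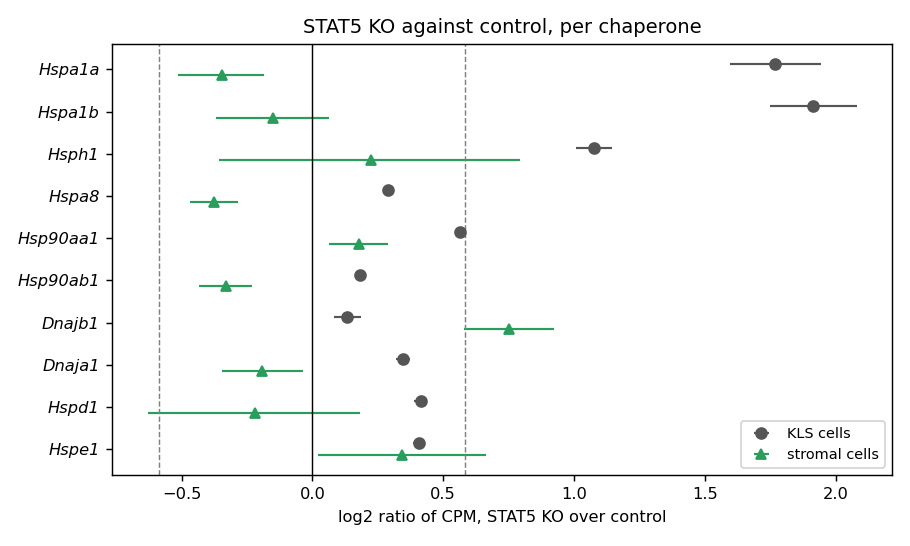
Log2 ratio of CPM, STAT5 KO over control, for each chaperone in KLS cells (circles) and stromal cells (triangles) with exact conditional binomial 95% intervals; dashed lines mark 1.5-fold. Hspa1a, Hspa1b and Hsph1 lie beyond 1.5-fold in KLS cells (1.77, 1.91 and 1.07) and Dnajb1 in stromal cells (0.75).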

How the data were processed

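Gene counts per cell barcode were deposited for 4 libraries, 1 per group, as made by the authors with Cell Ranger on GRCm38 (mm10), per the submitters' processing notes; the file headers give software version 3.1.0. The deposited counts are whole UMIs, not normalized, with 0 value columns left without a sample. Cells were kept from 200 genes up and to a ceiling of 10% mitochondrial UMIs. Scrublet's highest-scoring barcodes were left out as doublets, 0.8% per 1000 barcodes, since its automatic threshold marked 0 or 1 barcode per library. Barcodes with more UMIs in another library were also left out.

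UMIs were summed over kept cells and divided by the total to give CPM. Ratios carry exact conditional binomial intervals, levels exact Poisson intervals and shares Clopper-Pearson intervals, all 95% and for counting error only. With 1 library per group there is no test, no p-value and no replicate check. Cells were clustered (scanpy 1.11.5, Leiden resolution 1) without the chaperones, the genes of the heat shock factor 1 list, the mitochondrial and Y-linked genes, Stat5a, Stat5b and Xist, and a cluster was named from at least 3 markers among its 10 leading genes. Names are rebuilt here and may differ from the study's. Stromal cells are MSC clusters with Ptprc below 20% of the KLS level and not erythroid-like. Interval coverage was tried only on simulated Poisson counts, the spread these intervals assume, so that trial does not bear on the spread in the data. After thinning, the variance over the mean of the pair was 1.83 (control) and 2.34 (STAT5 KO) across KLS cells. Across stromal cells it was 3.54 and 6.21, so real uncertainty is wider than these intervals.

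The members and gene lists were chosen with earlier results of these data known. All members are named. Of other lists, genes past 1.5-fold with at least 100 UMIs are named, up to 6 per list and sort, and the 10 genes outside the members most correlated with Hspa1a plus Hspa1b. Promoter windows come from RefSeq (GRCm38.p6) and gene positions from GENCODE M21. Alternatives covered cell filters, scaling (edgeR 4.0.16 TMM, median of ratios), cluster weighting, thinning, pseudocounts and folds.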

Additional observations from a re-analysis of the deposited data

Results flagged for a closer look

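The pair and 3 further chaperones had log2 ratios of opposite sign in the 2 sorts. Between STAT5 KO and control, Hspa1a was higher in KLS cells and lower in stromal cells, both with intervals clear of 0, and the log2 ratio in KLS cells minus that in stromal cells was 2.12. For Hspa1a plus Hspa1b the difference was also 2.12. Hspa8 differed by 0.67, Hsp90ab1 by 0.51 and Dnaja1 by 0.54. These are 4 of 10 single chaperones and the sum of the pair, each resting on 1 library per group. The share of all genes with opposite signs was not counted. Of all genes, 48.5% were above 0 in KLS cells and only 37.4% in stromal cells. All 10 chaperones were above 0 in KLS cells, where the choice was made, so nothing is read from this count. The stromal side changed with the processing: with control cluster shares the pair's stromal log2 ratio was 0.0059, thinned to 1000 UMIs that of Hspa1a was 0.00217, and with control cluster shares at Leiden resolution 2 that of Dnaja1 was 9.99e-05. For Hspa1b alone the stromal interval included 0 (-0.37 to 0.06). The difference itself was not tested, and in the KLS cells the ratios of these genes had a part in the choice of the family.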

How the results depend on the processing

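No paired analysis was possible because each group is 1 library, and for the same reason no replicate could be left out. The cause of the changes below was not tested. In KLS cells the log2 ratio of Hspa1a plus Hspa1b (1.85) was 1.73 with stricter filters, 1.49 with every deposited barcode, 1.51 with barcodes kept that were larger in another library, 1.73 as a mean of single-cell CPM, 1.55 with control cluster shares (1.45 at Leiden resolution 2) and 1.65 thinned. Hsph1 (1.07) was 0.97 as a mean of single-cell CPM, 0.92 with control cluster shares (0.82 at resolution 2) and 0.88 thinned. The other 7 (0.31) gave 0.28 with stricter filters, 0.33 with TMM, 0.34 with median of ratios, 0.29 with a total without mitochondrial genes, Gm42418, AY036118, Malat1 and members, 0.29 as a mean of single-cell CPM, and 0.23 with control cluster shares (0.22 at resolution 2). The count of 3 members was 7 at a lower fold threshold and 4 with TMM or median of ratios, which add Hsp90aa1 (0.59 by either). The difference in share of cells (6.34 points) was 4.08 at 2000 UMIs, 10.8 at 8000 UMIs and 4.03 with control cluster shares (3.57 at resolution 2). Alternatives chosen after seeing the data gave, in Xist cells, 4.23 for the pair, 0.24 for the other 7 and 4.36 points, and in Y cells 1.55, 0.34 and 7.54 points. At 3 to 4% mitochondrial UMIs the pair was 0.14, Hsph1 0.46, the other 7 0.090, the count 0 and the share difference 0.118 points, and Dnajb1 (-0.024) and Hspd1 (-0.041) turned below 0. In stromal cells the pair (-0.28) was -0.49 with stricter filters, -0.44 with every barcode, -0.41 with larger barcodes kept, -0.059 as a mean of single-cell CPM, 0.0059 with control cluster shares (-0.073 at resolution 2), -0.084 thinned, -0.47 over all MSC cells and -0.027 in Xist cells. The other 8 (-0.11) gave -0.016 with TMM, -0.028 with median of ratios and -0.036 with control cluster shares (0.019 at resolution 2). The count of 1 member was 0 with control cluster shares at either resolution, 2 at a lower fold threshold, 0 at 2-fold and 2 in Xist cells. Dnaja1 turned to 9.99e-05 with control cluster shares at resolution 2 and Hspa1a to 0.00217 thinned. Of the values that answer a comparison, 62 of the planned recomputations stayed within the reported interval (counts within 1.5 times), 37 did not and 2 reversed.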
